A study of Petunia x hybrida with 22 samples.

Results

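In corolla tissue of the petunia cultivar Mitchell (Petunia × hybrida), 780 genomic regions were listed with more H3K27 acetylation (H3K27ac) at 7PM than at 7AM in at least 1 replicate, and overlapped a place listed with less H3K36 trimethylation (H3K36me3) at 7PM. They were chosen from lists of called intervals (islands) that the authors deposited, one set per mark and replicate. Islands with higher H3K27ac at 7PM, in replicate 1 or 2, were merged where they overlapped by at least 1 bp, which gave 7752 rising regions. A rising region was kept where it overlapped by at least 1 bp an island with lower H3K36me3 at 7PM, in replicate 1 or 3, and 10.1% of the rising regions were kept. Because both marks served to choose the regions, their levels are given as a description with no test.

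H3K27ac and H3K9ac are placed on histone tails by acetyltransferases and mark active promoters and enhancers. H3K36me3 is laid down behind elongating RNA polymerase II and lies over the bodies of transcribed genes, while H3K4me3 sits around the starts of active genes. Acetylation and H3K4me3 thus tend to sit near a gene's start and H3K36me3 over its body, and the place of an acetylated island against a methylated one is a part of the description. In petunia flowers the corolla makes and releases scent, which is emitted mainly at night.

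Plants were grown in a greenhouse with 14 h of light, from 6AM to 8PM, and 10 h of dark. Chromatin of corollas crosslinked with 1% formaldehyde was immunoprecipitated at 7PM, close to the end of the light period, and at 7AM, 1 h into it, with antibodies to H3K27ac, H3K36me3, H3K9ac and H3K4me3. Each mark had 2 libraries at 7PM and 2 at 7AM, called biological replicates by the submitters, numbered 1 and 3 for H3K36me3 and 1 and 2 for the other marks. The labels name no separate plants, so the spread between replicates may be partly technical, and the 6 input libraries were not used here. The 16 lists hold 125384 islands, and each compares one 7PM library with the 7AM library of the same number.

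Depth and list size differed between replicates, and the results lean on the replicates with the longer lists. H3K27ac libraries held 14140437 reads at 7PM and 11366924 at 7AM in replicate 1, and 7945368 at 7PM and 6721831 at 7AM in replicate 2. The other libraries held 11507185 to 51116862 reads. The deeper H3K27ac replicate 1 listed 3227 islands as higher at 7PM and replicate 2 listed 4977. For H3K36me3, 11648 islands were lower at 7PM in replicate 3 and 3702 in replicate 1. H3K9ac replicate 1 had 5699 islands higher and 21714 lower at 7PM, whereas replicate 2 had 6415 higher and 5331 lower. The lists hold only islands that changed by at least 2-fold, so an unlisted region is not shown to be unchanged.

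The rise of H3K27ac was listed in replicate 2 alone at 615 of the 780 regions (78.8%), in replicate 1 alone at 83 (10.6%) and in both at 82 (10.5%). Over all rising regions, 5.55% were listed in both replicates. The fall of H3K36me3 was listed in replicate 3 at 727 regions, in replicate 1 at 147 and in both at 94 (12.1%). These counts took only H3K36me3 islands that touched the acetylated region. Of all 12896 merged falling H3K36me3 regions, 18.8% held islands of both replicates anywhere along their length. That is a wider count, which cannot be set against the 12.1%. The commonest combination, H3K27ac replicate 2 with H3K36me3 replicate 3, made up 506 regions (64.9%). Only 12 regions were listed in both replicates of both marks. At 29 regions (3.72%) the other H3K27ac replicate listed an island of the opposite direction, 27 of them in replicate 1, and over all rising regions the same share was 3.72%. None of the 780 regions overlapped an island with higher H3K36me3 at 7PM in the other replicate. No such share over all falling H3K36me3 regions is given here, so this is not shown to be particular to the 780.

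**Figure D1:**
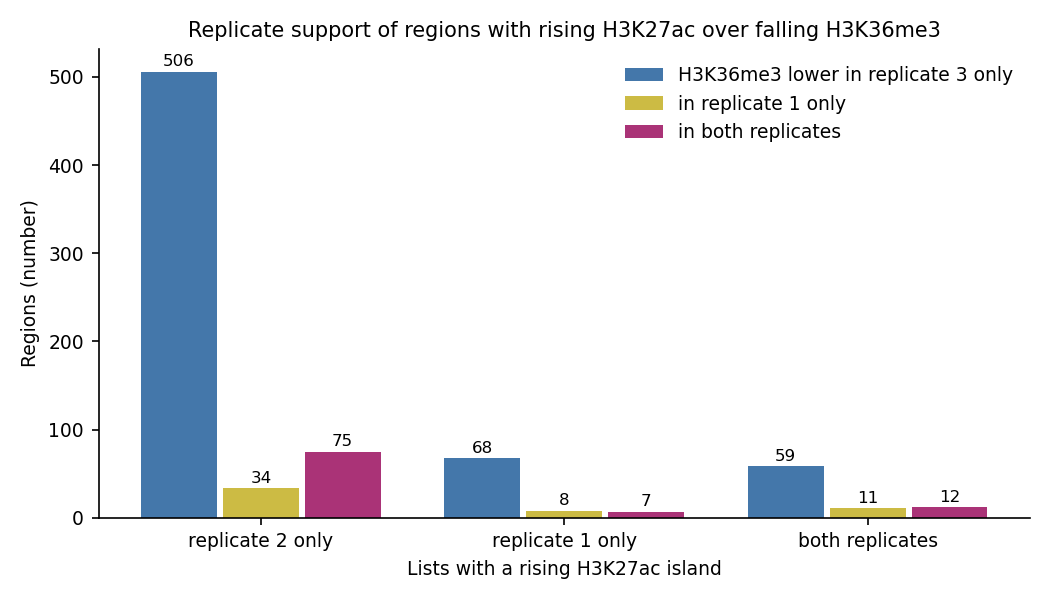
Number of the 780 regions (vertical axis) by the H3K27ac lists that hold the rise (horizontal axis) and the H3K36me3 lists that hold the fall (bar colour). The bar for H3K27ac replicate 2 with H3K36me3 replicate 3 stands at 506, and the 12 regions in both replicates of both marks form the last bar on the right.

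The regions lay on 454 scaffolds of the petunia assembly, of which 288 held 1 region and 22 held at least 5, with at most 13 on a scaffold. They were longer than the other rising regions, with a median of 1400 bp (quartiles 1000 and 2200 bp, range 200 to 9800 bp) against 1000 bp. They fell into 779 of the 12896 falling H3K36me3 regions (6.04%), of which 756 held 1 and 23 held 2. Those 779 methylated regions had a median length of 5000 bp, against 3400 bp for the other falling ones. A longer region meets an overlap rule of 1 bp more easily, and the part of the rule in these length differences was not tested. Falling H3K27ac was also present in 104 of the 779 (13.4%). Over all falling H3K36me3 regions, 16.3% held falling H3K27ac.

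In H3K27ac replicate 2, the 697 regions listed there had 11 to 691 reads at 7PM with a median of 33, and 0 to 289 reads at 7AM with a median of 10. In replicate 1, the 165 regions listed had 17 to 533 reads at 7PM (median 37) and 1 to 191 at 7AM (median 11). Most of these islands were shallow, and the log2 fold of 7PM over 7AM, after adding 1 read and scaling to library totals, had a median of 1.31 in each replicate, ranging to 4.80 in replicate 2 and 3.71 in replicate 1. At least 4-fold rises were listed at 83 regions in replicate 2 (11.9%, against 12.1% of all islands higher in that list) and at 22 in replicate 1 (13.3%, against 8.61%). Across the 82 regions listed in both replicates, the size of the fold in replicate 1 and in replicate 2 had a Spearman correlation of 0.19, between islands whose borders were set separately.

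The H3K36me3 islands over them were deeper. In replicate 3, the 727 regions had 2 to 1635 reads at 7PM (median 156) and 24 to 4266 at 7AM (median 441), with a median log2 fold of −1.19 and a lowest of −2.83. In replicate 1, the 147 regions had 6 to 1030 reads at 7PM (median 70) and 21 to 2364 at 7AM (median 173), with a median log2 fold of −1.13. The falls were thus mostly near the 2-fold limit of the lists, and a fall of at least 4-fold was listed at 13 regions in replicate 3 (1.79%, against 2.3% of all falling islands there) and at 0 in replicate 1 (against 3.11%). Across 652 regions listed in H3K27ac replicate 2 and H3K36me3 replicate 3, the 2 log2 folds had a Spearman correlation of −0.11, with each region's reads taken over different bases for the 2 marks.

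The 12 regions listed in both replicates of both marks were 1400 to 5600 bp long (median 2900 bp). Their mean H3K27ac log2 fold was 1.16 to 2.19 (median 1.59), and their mean H3K36me3 log2 fold was −1.74 to −1.03 (median −1.27). At 11 of the 12 an H3K9ac island was listed as higher at 7PM, in both H3K9ac replicates at 7, and none was lower. Of the 348 other rising regions listed in both H3K27ac replicates, 64.7% had higher H3K9ac, and 32.5% had it in both H3K9ac replicates. Lower H3K9ac was listed at 2.01% of those 348 in replicate 1 and at 0 in replicate 2. H3K4me3 was listed as lower at 6 of the 12, in both replicates at 2, and higher at 0. Among the 82 regions listed in both H3K27ac replicates, which include the 12, these shares were 30.5%, 4.88% and 1.22%. Over all rising regions they were 7.06%, 0.851% and 3.38%. A single one lay wholly inside its methylated region, 6 crossed a border and 5 reached around it.

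By the mean H3K27ac fold, the first of them lay at Peaxi162Scf00058:2627001-2630000. H3K27ac there had 254 reads at 7PM and 46 at 7AM in replicate 1, and 152 at 7PM and 26 at 7AM in replicate 2, a mean log2 fold of 2.19 ± 0.10 (SD, n = 2 pairs). H3K36me3 had 55 reads at 7PM and 175 at 7AM in replicate 1, and 42 at 7PM and 164 at 7AM in replicate 3, a mean of −1.58 ± 0.11. H3K9ac followed H3K27ac, with 234 reads at 7PM and 54 at 7AM in replicate 1 and 398 at 7PM and 48 at 7AM in replicate 2. H3K4me3 went the other way, with 275 reads at 7PM and 403 at 7AM in replicate 1, from a 7PM library of greater depth, and 78 at 7PM and 228 at 7AM in replicate 2. Thus all 4 marks were listed in both replicates at this 3000 bp region, with both acetylations higher and both methylations lower at 7PM. Its methylated region spanned 2627001 to 2629200 and lay within the acetylated one.

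At Peaxi162Scf00304:808201-813200 the acetylated region began inside a methylated region (804401 to 810200) and ran 3000 bp past its right border. H3K27ac had 268 reads at 7PM and 63 at 7AM in replicate 1, and 139 at 7PM and 29 at 7AM in replicate 2. H3K36me3 had 373 reads at 7PM and 862 at 7AM in replicate 1, and 174 at 7PM and 609 at 7AM in replicate 3. H3K9ac was listed as higher in replicate 1 alone, with 120 reads at 7PM and 44 at 7AM, and its island lay along the H3K27ac island, while the lower H3K4me3 island of replicate 2 (147 reads at 7PM, 344 at 7AM) lay along the methylated one. In this region the 2 pairs of marks sat side by side and shared 2000 bp.

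The 1800 bp region Peaxi162Scf00013:795201-797000 reached around a methylated region of 600 bp, and held a further falling H3K36me3 island of replicate 3 to its left. H3K27ac had 43 reads at 7PM and 10 at 7AM in replicate 1, and 86 at 7PM and 25 at 7AM in replicate 2. H3K36me3 had 40 reads at 7PM and 104 at 7AM in replicate 1, and 25 at 7PM and 97 at 7AM in replicate 3, summed over both islands. H3K9ac was higher and H3K4me3 lower at 7PM in both replicates here too, the lower H3K4me3 on the left island alone, with mean log2 folds of 1.37 ± 0.01 and −1.17 ± 0.11 (SD, n = 2 pairs).

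Peaxi162Scf00382:619601-621000 was the one wholly inside its methylated region (619401 to 622000). H3K27ac reads were few, with 36 at 7PM and 10 at 7AM in replicate 1 and 15 at 7PM and 2 at 7AM in replicate 2, and the mean log2 fold was 1.80 ± 0.52. H3K36me3 had 64 reads at 7PM and 145 at 7AM in replicate 1, and 25 at 7PM and 64 at 7AM in replicate 3. The H3K9ac and H3K4me3 islands that covered it, one higher and one lower at 7PM, were both listed in replicate 2 alone.

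**Figure D2:**
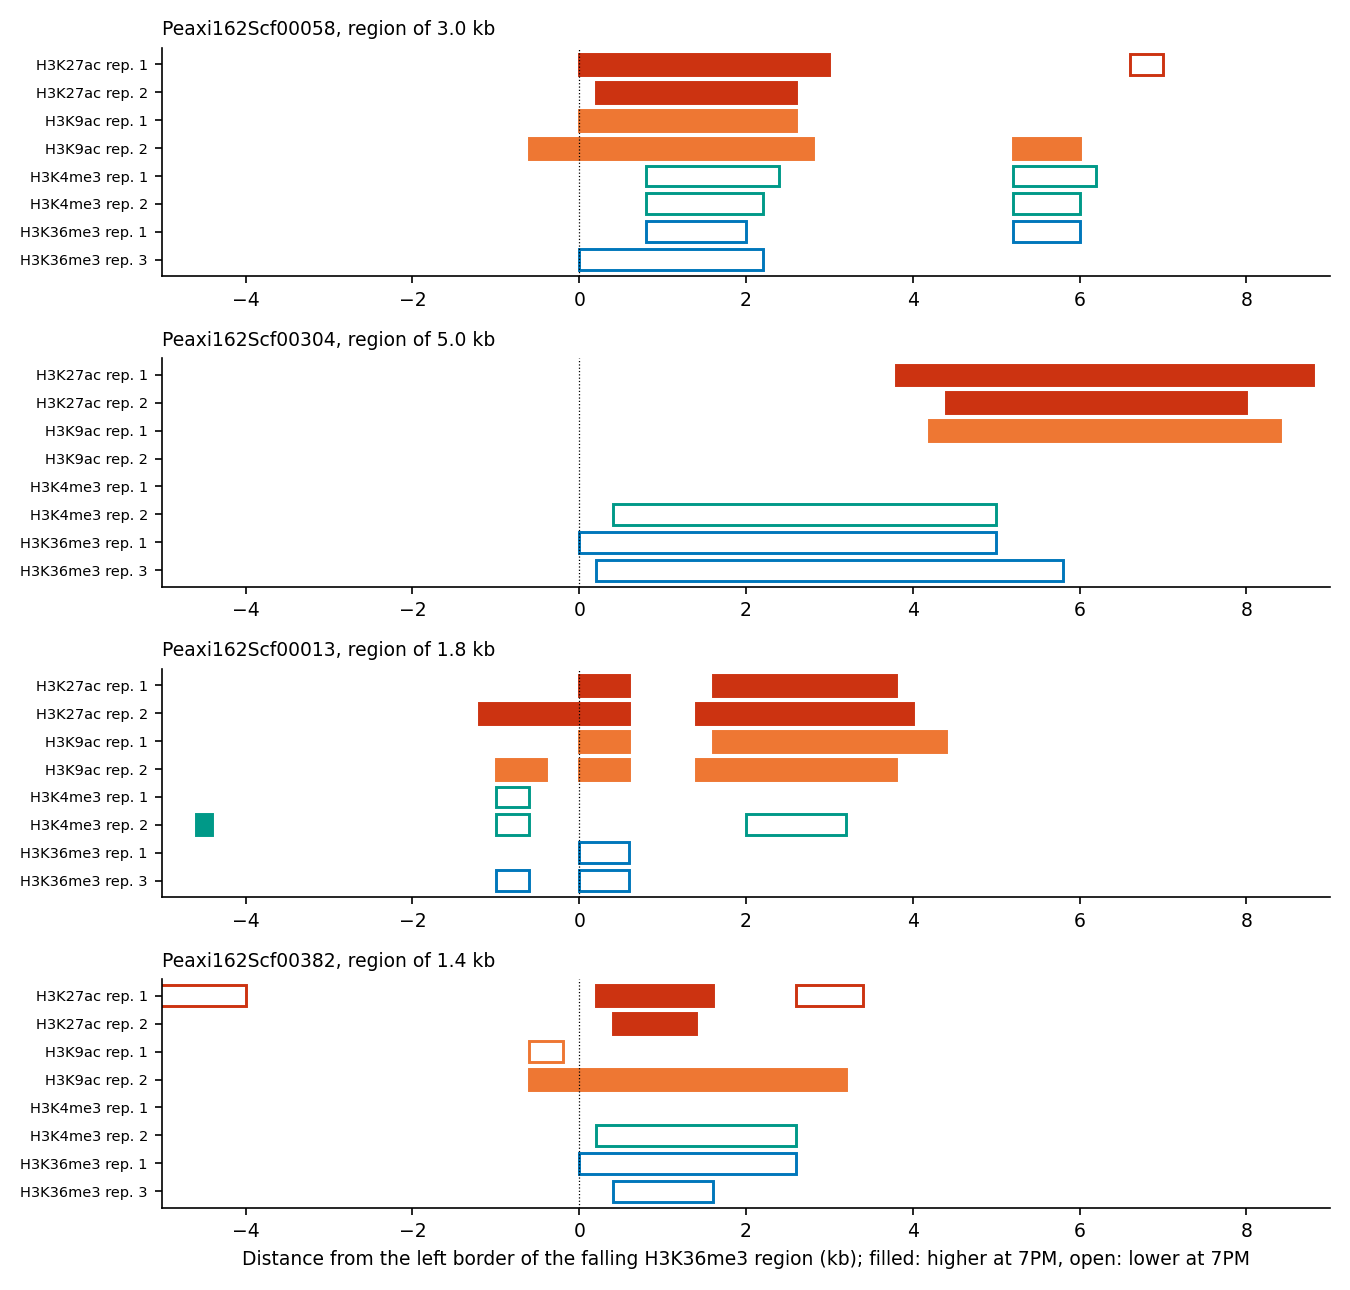
Listed islands around the first 4 of the 12 regions, by distance in kb from the left border of the falling H3K36me3 region (horizontal axis), one line per mark and replicate. Filled bars were higher at 7PM and open bars lower. On Peaxi162Scf00058 the filled H3K27ac and H3K9ac bars lie over the open H3K36me3 bars near 0, and a further open H3K36me3 bar on the right has no H3K27ac bar over it; on Peaxi162Scf00304 the H3K27ac and H3K36me3 regions share 2 kb.

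At Peaxi162Scf00074:932601-935000 the H3K27ac replicates differed in size, with 77 reads at 7PM and 9 at 7AM in replicate 1 and 107 at 7PM and 33 at 7AM in replicate 2, a mean log2 fold of 2.04 ± 0.86. H3K36me3 had 54 reads at 7PM and 143 at 7AM in replicate 1, and 16 at 7PM and 81 at 7AM in replicate 3. On the same scaffold, Peaxi162Scf00074:1905401-1906800 had 22 H3K27ac reads at 7PM and 4 at 7AM in replicate 1, and 19 at 7PM and 7 at 7AM in replicate 2. Both had H3K9ac listed as higher in both replicates, and the first also had lower H3K4me3 in replicate 1.

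The longest of the 12, the 5600 bp region Peaxi162Scf00452:396001-401600, had 231 H3K27ac reads at 7PM and 78 at 7AM in replicate 1, and 180 at 7PM and 45 at 7AM in replicate 2. Peaxi162Scf00286:431601-436200 had 216 at 7PM and 85 at 7AM, and 94 at 7PM and 25 at 7AM. Peaxi162Scf00166:1261001-1263800 had 193 at 7PM and 72 at 7AM, and 141 at 7PM and 28 at 7AM. In these 3 regions, as in all of the 12, H3K27ac was higher at 7PM in each pair by the choice of regions. The 800 bp methylated region within Peaxi162Scf00166 was shallow. It had 13 reads at 7PM and 48 at 7AM in replicate 1, and 9 at 7PM and 42 at 7AM in replicate 3.

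The remaining 3 regions crossed a border of their methylated region. Peaxi162Scf01164:167201-171400 touched the end of a methylated region of 8600 bp, whose H3K36me3 counts were the highest of the 12, with 650 reads at 7PM and 1505 at 7AM in replicate 1 and 466 at 7PM and 1423 at 7AM in replicate 3. Peaxi162Scf00163:482601-487400 had 30 H3K27ac reads at 7PM and 5 at 7AM in replicate 1, and 66 at 7PM and 23 at 7AM in replicate 2. Peaxi162Scf00174:1111001-1112400, with 27 at 7PM and 10 at 7AM and 22 at 7PM and 7 at 7AM, was the region of the 12 with neither H3K9ac nor H3K4me3 listed.

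**Figure D3:**
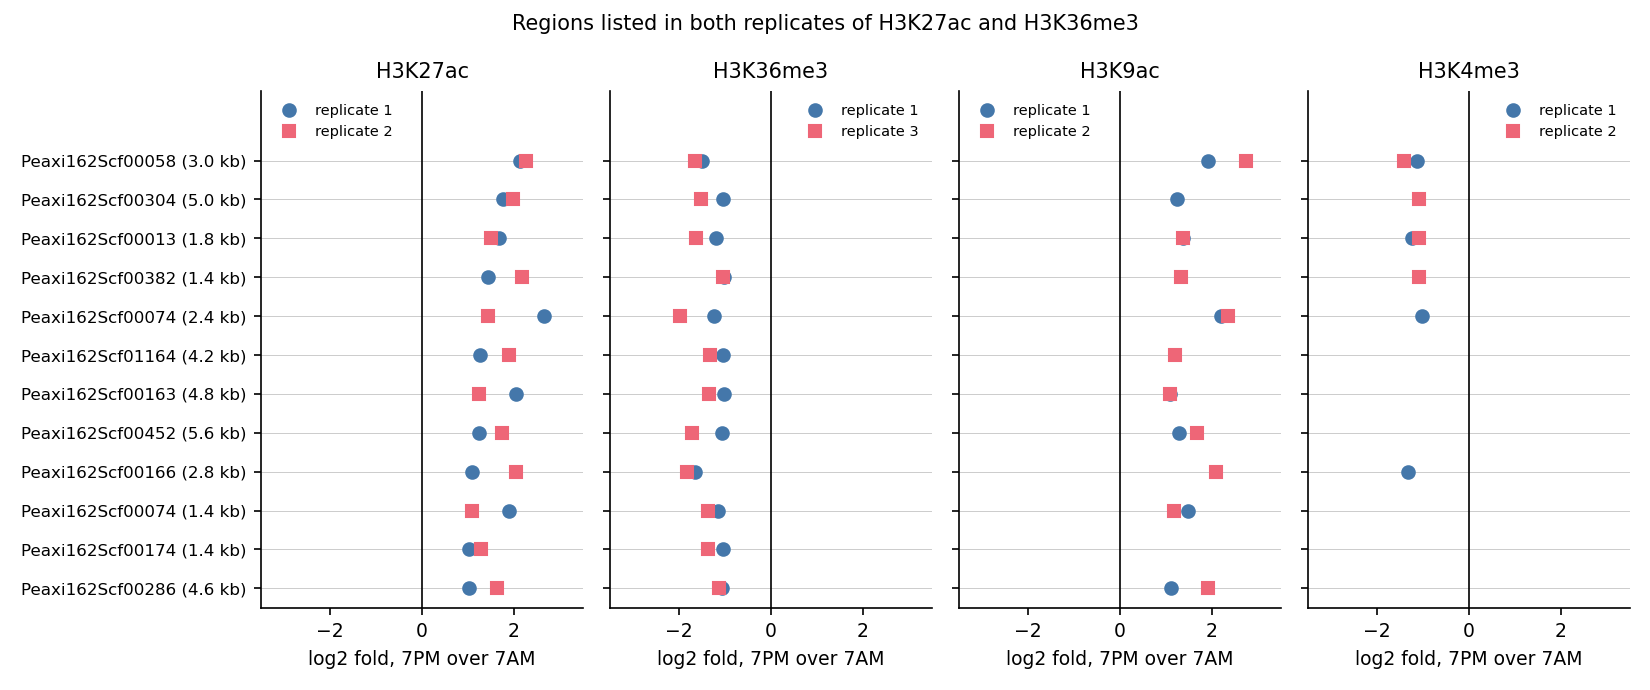
Log2 fold of 7PM over 7AM (horizontal axis) of each mark at the 12 regions listed in both replicates of H3K27ac and H3K36me3 (vertical axis, with region length), one point per replicate that lists the region. H3K27ac points lie at or above 1.02, H3K36me3 points at or below −1.01, all H3K9ac points to the right of 0 and all H3K4me3 points to the left.

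The 5 regions with the most H3K27ac at 7PM, by CPM (read counts scaled to library size, averaged over the replicates that list a region), were all listed in H3K27ac replicate 2 alone, and 4 of the 5 had log2 folds below the median of 1.31. Peaxi162Scf00386:528601-536200 had 691 reads at 7PM (87.0 CPM) and 289 at 7AM (43.0 CPM). Peaxi162Scf00078:1088801-1098600, at 9800 bp the longest of the 780, had 517 at 7PM and 213 at 7AM. Peaxi162Scf00467:933201-939200 had 411 at 7PM and 153 at 7AM. These strong and broad places, and likewise Peaxi162Scf00782:453801-456000 (394 reads at 7PM, 154 at 7AM) and Peaxi162Scf01270:124001-130000 (351 at 7PM, 102 at 7AM), had log2 folds of 1.01 to 1.53. At all 5, H3K9ac replicate 2 was listed as higher as well, with log2 folds of 1.39 to 1.71, and 3 of the 5 reached around their methylated region.

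Of the 780 regions, 381 (48.8%, exact 95% interval 45.3 to 52.4%) lay wholly inside a falling H3K36me3 region, 310 (39.7%) crossed a border and 89 (11.4%) reached around it. Here and below, the exact intervals treat regions as independent, though regions share libraries and scaffolds. They cover counting error only, not the spread between replicates. As a comparison, 2132 falling H3K27ac regions overlapped falling H3K36me3, and of those 576 (27.02%) lay inside, 1037 (48.6%) crossed a border and 519 (24.3%) reached around. At 653 of the 780 regions (83.7%) at least 50% of the bases were covered by falling H3K36me3, with a median of 91.7%, while a region covered a median of 23.8% of its methylated region. The middle of 123 regions (15.8%) lay outside the methylated region, against 26.7% of the falling H3K27ac regions. Most of the 780 regions were thus largely covered by the falling H3K36me3 that they were chosen to overlap, though many reached past a border.

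For the 381 regions wholly inside, the middle stood at a median of 25% of the methylated length from the nearer border. When the methylated region was cut into 3 equal parts, 231 middles (60.6%) fell into the 2 outer parts. Middles spread evenly along the methylated length would also have a median of 25%, and 2 of 3 equal parts would hold most of them. The middle of a region wholly inside, however, stays away from the border by part of the region's own length, so that yardstick cannot settle a lean. The median distance was 42.9% with methylated regions of up to 2000 bp, 19.2% with 2200 to 5000 bp and 28.2% with 5200 to 10000 bp. Above that it was 16.4%, and a lean to the borders was not tested. The border itself was reached by 163 of the 381. With those that cross a border counted in, coverage was highest next to the border. Just inside it 43.7% of the 780 regions covered the base, against 32.7% at the centre and 27.6% just outside. For falling H3K27ac regions the profile had the same shape at a higher level, and those regions were longer (median 2000 bp, against 1400 bp for the rising ones). Strand is not in the lists, so the 2 borders could not be told apart as start and end of a gene.

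**Figure D4:**
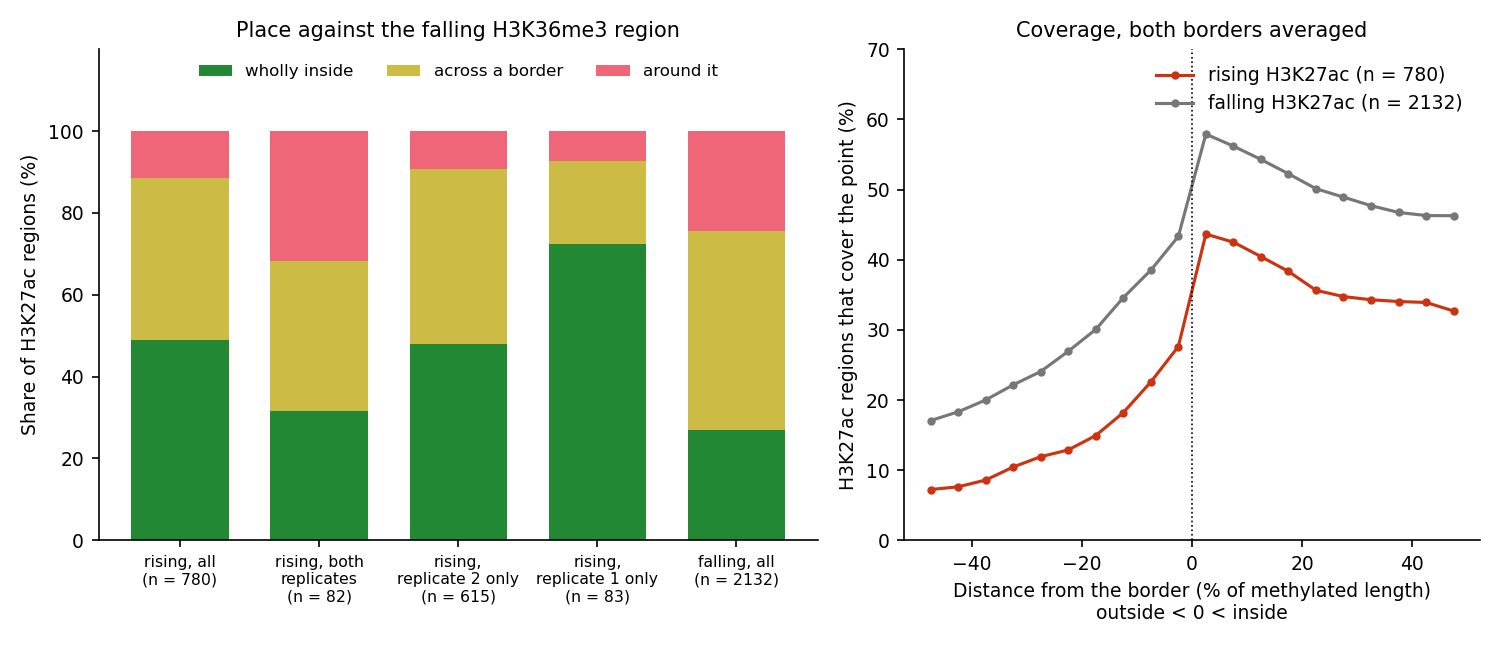
Left, share of H3K27ac regions (%) wholly inside, across a border of, or around the falling H3K36me3 region, for rising regions by replicate support and for falling H3K27ac regions. Right, percent of H3K27ac regions covering each point, by distance from the border in percent of methylated length, both borders averaged; coverage of the 780 rising regions is highest just inside the border, at 43.7%.

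The place of the acetylated region went with its length and depth. Of the 83 regions listed in H3K27ac replicate 1 alone, 72.3% lay inside, against 48.0% of the 615 in replicate 2 alone and 31.7% of the 82 in both, which were longer (median 2300 bp). With methylated regions of up to 2000 bp, 39.1% of acetylated regions lay inside, with 2200 to 5000 bp 41.2%, with 5200 to 10000 bp 54.3% and above that 65.1%. Of 346 regions with under 30 H3K27ac reads at 7PM, 66.2% lay inside and 3.47% around, whereas of 131 regions with at least 100 reads 14.5% lay inside and 43.5% around. The median length was 1000 bp in the class with few reads and 3600 bp in the class with many. The part of length and depth in the place of a region was not tested.

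A falling H3K4me3 island, as found near gene starts, lay in the methylated region of 244 of the 780 regions (31.3%), and it was the single one there for 226. In 109 cases its middle stood in an outer part of the methylated region when cut into 3, which gave that region a side. Rising H3K27ac then had its middle on the H3K4me3 side at 36 regions, in the middle part at 24 and on the far side at 49. Of 357 falling H3K27ac regions placed in the same way, 189 were on the H3K4me3 side, 59 in the middle part and 109 on the far side. Counted from the H3K4me3 side, the median position was 59.7% of the methylated length for rising and 27.3% for falling H3K27ac. An H3K27ac region can itself overlap the H3K4me3 island that sets the side. These positions are a description over regions of the same libraries with no test, and no lean to a side is drawn from them.

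The longest methylated region with 2 acetylated regions, the most that any held, was Peaxi162Scf00057:2712001-2736600, chosen for its length from 23 that tie. H3K36me3 replicate 3 had 821 reads there at 7PM and 2061 at 7AM over 24600 bp. The first acetylated region started 4200 bp from the left border, with 30 H3K27ac reads at 7PM and 6 at 7AM in replicate 1 and 17 at 7PM and 3 at 7AM in replicate 2. The second was an island of 200 bp, 17400 bp from the border, with 18 reads at 7PM and 2 at 7AM in replicate 1. H3K4me3 was listed as lower near the left end alone (79 reads at 7PM, 189 at 7AM, replicate 2), so neither acetylated region touched it.

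Many regions met the rule by few bases, and many others missed it by little. The overlap was 200 bp, a single window of the authors' calling, at 29 regions and under 600 bp at 102, with a median of 1000 bp. Peaxi162Scf00011:815601-816600 (14 H3K27ac reads at 7PM, 4 at 7AM), Peaxi162Scf00013:997601-998000 (13 at 7PM, 4 at 7AM) and Peaxi162Scf00015:547401-548000 (23 at 7PM, 4 at 7AM) each shared 200 bp. At the Peaxi162Scf00013 region H3K27ac replicate 1 was listed as lower, with 13 reads at 7PM and 24 at 7AM.

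Outside the rule, 19 rising regions abutted a falling H3K36me3 region without sharing a base, and 199 lay within 1000 bp. Among them, Peaxi162Scf00000:8381201-8382600 had 29 H3K27ac reads at 7PM and 10 at 7AM, Peaxi162Scf00003:3215801-3217200 had 17 at 7PM and 4 at 7AM, and Peaxi162Scf00004:2378201-2379000 had 26 at 7PM and 10 at 7AM, all in replicate 2. These 3 had 17 to 29 reads at 7PM, against 13 to 23 for the 3 named regions that shared 200 bp. The median gap of 6711 other rising regions with a falling H3K36me3 region on their scaffold was 45000 bp.

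H3K9ac, the other acetylation, was not used to choose the regions. It was listed as higher at 7PM in either replicate at 259 of the 780 regions (33.2%, exact 95% interval 29.9 to 36.6%), against 21.4% of all rising regions. The support came from replicate 2, with 254 regions (32.6%, against 15.1%), while replicate 1 listed 56 (7.18%, against 9.67%) and both listed 51 (6.54%, against 3.39%). Relative to all rising regions, the share was therefore higher in replicate 2 and lower in replicate 1. H3K9ac was listed as lower at 71 regions (9.10%, against 5.68%), 69 of them in replicate 1 (8.85%, against 4.61%), and in both replicates at 0 (against 0.0903%). Among the 83 regions of H3K27ac replicate 1 alone, higher H3K9ac was listed at 15 in H3K9ac replicate 2 and at 3 in replicate 1, or 18.1% and 3.61%. Over all rising regions of H3K27ac replicate 1 alone the shares were 5.81% in H3K9ac replicate 2 and 9.76% in replicate 1. At 10 regions replicate 1 listed lower and replicate 2 higher H3K9ac.

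Where it was listed as higher, H3K9ac mostly covered the bases of the acetylated region. Its rising islands had a median length of 2800 bp, against 1400 bp for all 780 acetylated regions. The rising H3K9ac islands covered a median of 100% of the acetylated region and at least 50% at 247 of 259 (95.4%), and the 2 middles differed by a median of 300 bp. The median log2 fold was 1.41 in replicate 2 (157.5 reads at 7PM and 43 at 7AM, medians over 254 regions) and 1.46 in replicate 1 (61 at 7PM and 16.5 at 7AM, over 56). Those medians lay above the 1.22 and 1.31 of all islands higher in the same lists. Across 239 regions listed in replicate 2 of both acetylations, the sizes of the 2 log2 folds had a Spearman correlation of 0.20, and across 37 in replicate 1 one of 0.41, between libraries at the same regions.

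**Figure D5:**
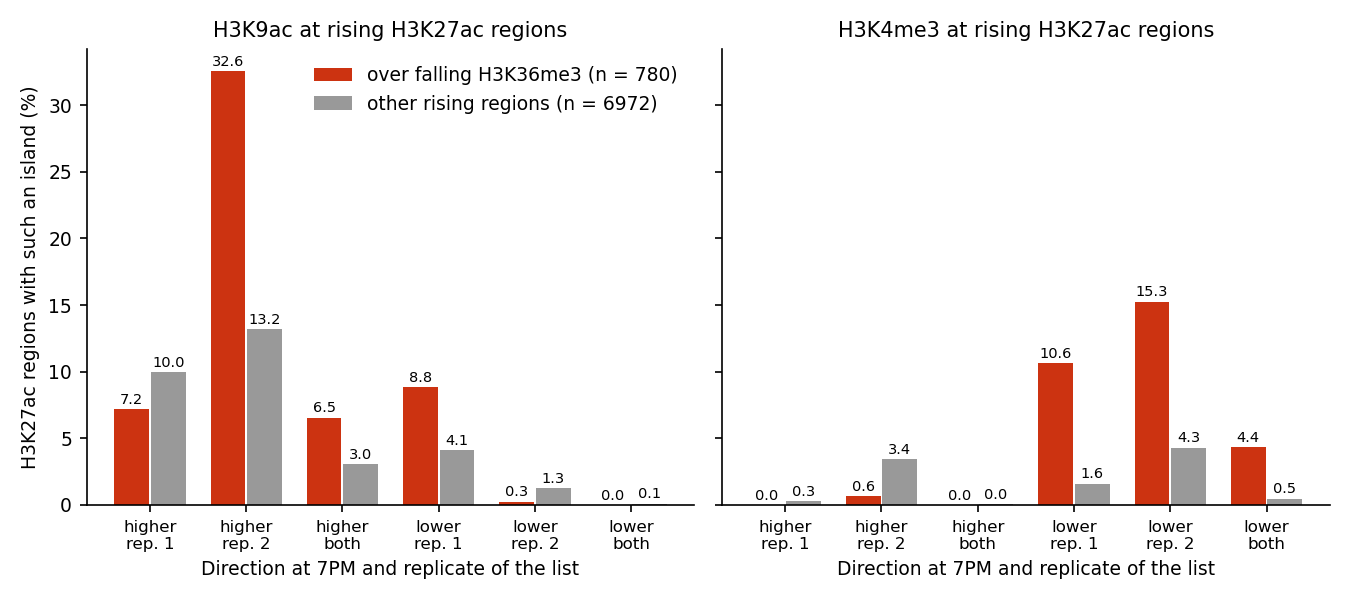
Percent of the 780 rising H3K27ac regions over falling H3K36me3 (red, left bar) and of the 6972 other rising regions (grey, right bar) that overlap an H3K9ac or H3K4me3 island, by direction at 7PM and replicate. The red bar is the taller for higher H3K9ac in replicate 2 (32.6% against 13.2%) and for lower H3K4me3 in both lists, but not for higher H3K9ac in replicate 1 (7.18% against 9.95%).

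H3K9ac was listed as higher most often where H3K27ac had many reads, was listed in both replicates or reached around the methylated region. It was listed at 60 of the 82 regions with H3K27ac in both replicates (73.2%), against 64.7% of other rising regions with both. It was listed at 80 of the 89 regions around a methylated one (89.9%), at 27.4% of those across a border and at 24.7% of those inside. By H3K27ac reads at 7PM the share was 14.7% under 30 reads, 24.3% at 30 to 49, 40.3% at 50 to 99 and 86.3% from 100 reads on. In other rising regions the same classes had 14.9%, 21.8%, 36.1% and 71.9%, so the shares lay close together at low reads. Split by length, the share was 22.2% up to 1000 bp, 24.2% at 1200 to 2000 bp and 57.0% above that. Other rising regions had 15.9%, 19.9% and 45.1%. Of the 780 regions 131 had at least 100 reads, against 3.27% of the other rising regions. The part of depth and length in the higher H3K9ac share was not tested.

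By the smaller of its 2 log2 folds, the largest H3K9ac rise listed in both replicates lay at Peaxi162Scf00825:229201-230600. H3K9ac had 84 reads at 7PM and 7 at 7AM in replicate 1, and 159 at 7PM and 6 at 7AM in replicate 2, a mean log2 fold of 3.73 ± 0.71 (SD, n = 2 pairs). H3K27ac had 158 at 7PM and 18 at 7AM in replicate 1, and 99 at 7PM and 8 at 7AM in replicate 2. At this 1400 bp region both acetylations stood several-fold above 7AM in each pair, and the falling H3K36me3 island within it was 400 bp long, with 31 reads at 7PM and 88 at 7AM in replicate 1.

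Peaxi162Scf00314:862801-865800 had the highest mean H3K27ac fold of the regions named here, 4.05 ± 0.47 on the log2 scale, from 195 reads at 7PM and 11 at 7AM in replicate 1 and 122 at 7PM and 4 at 7AM in replicate 2. Its H3K9ac had 185 reads at 7PM and 28 at 7AM in replicate 1, and 285 at 7PM and 38 at 7AM in replicate 2. Peaxi162Scf00251:996601-998200 had 69 H3K9ac reads at 7PM and 10 at 7AM, and 117 at 7PM and 19 at 7AM. Both regions were picked for rises listed in both H3K9ac replicates, so higher values at 7PM follow from that choice. At Peaxi162Scf00684:316601-321400 H3K27ac had 533 reads at 7PM and 191 at 7AM in replicate 1, and 393 at 7PM and 76 at 7AM in replicate 2, and H3K9ac had 139 at 7PM and 21 at 7AM, and 697 at 7PM and 110 at 7AM. With Peaxi162Scf00074:932601, these were the 5 regions with the largest H3K9ac rise in both replicates, ranked by the smaller of the 2 log2 folds, and at each the acetylated region reached around a methylated one.

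The opposite pairing, H3K27ac higher and H3K9ac lower with no higher H3K9ac island, was listed at 61 regions, against 5.11% of all rising regions. Lower H3K9ac was listed at 13.3% of regions with under 30 H3K27ac reads at 7PM and at 1.53% of those with at least 100, against 6.11% and 0.877% in other rising regions. At Peaxi162Scf00191:236801-240000 H3K9ac had 0 reads at 7PM and 12 at 7AM in replicate 1, while H3K27ac replicate 2 had 60 at 7PM and 24 at 7AM. At Peaxi162Scf00014:440201-442400 H3K9ac had 3 at 7PM and 19 at 7AM in replicate 2. At Peaxi162Scf01096:324801-326800 H3K9ac had 74 at 7PM and 282 at 7AM in replicate 1, and the H3K27ac replicates were listed in opposite directions, with 135 reads at 7PM and 321 at 7AM in replicate 1 and 54 at 7PM and 20 at 7AM in replicate 2. There both acetylations were lower at 7PM in replicate 1, and H3K27ac alone was listed as higher, in replicate 2.

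H3K9ac was tested in edgeR by the quasi-likelihood test with Benjamini-Hochberg adjustment, over 2424 regions listed in both H3K9ac replicates. At an adjusted p under 0.05, 0 regions were called in either direction, 0.0% of those tested, and at an unadjusted p under 0.05, 283 were higher (11.7%) and 851 lower (35.1%). Of the tested regions 68 overlapped the 780, of which 55 were higher in both pairs (16.7% over all tested). A further 3 were lower in both (55.8% over all tested) and 10 were opposite (668 of the 2424 tested). None of the 3 lower ones had islands of both replicates on the acetylated region itself. None of the 68 was called, 46 were higher and 2 lower at an unadjusted p under 0.05, and the fitted log2 fold had a median of 1.51, against −1.24 over all tested. The regions entered the test because both pairs had listed them as changed, so the sizes of their folds partly follow from that choice. At Peaxi162Scf00825:229201 the fitted log2 fold was 3.90 with an adjusted p of 0.105 (edgeR), and at Peaxi162Scf00314:862801 it was 2.58 with the same adjusted p. Both were picked for large H3K9ac rises listed in both replicates. The count of calls depended on the scaling and the tool: TMM factors gave 54 higher of the 68 (14.2% over all tested), DESeq2 gave 25 (9.43% of those with an adjusted p), and a minimum of 50 reads gave 27 of 33 (25.9%). TMM factors assume that most tested regions did not change. They moved the median fitted log2 fold up, to 2.43 at the 68 and to −0.29 over all tested.

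H3K4me3 was listed as lower at 7PM in either replicate at 168 of the 780 regions (21.5%, exact 95% interval 18.7 to 24.6%), against 7.06% of all rising regions and 5.44% of the others. Replicate 1 listed 83 (10.6%, against 2.52%), replicate 2 listed 119 (15.3%, against 5.39%) and both listed 34 (4.36%, against 0.851%). H3K4me3 was listed as higher at 5 regions (0.641%, against 3.38%), all of them in replicate 2 (against 3.16%), with 0 in replicate 1 (against 0.258%) and 0 in both (against 0.0387%). By H3K27ac reads at 7PM, the lower share was 19.1% under 30 reads and 26.7% from 100 reads on, against 5.04% and 15.8% in other rising regions, so it stood above theirs in shallow and in deep regions. Without H3K36me3 replicate 3, the share with lower H3K4me3 was 48.3% (71 of 147 regions).

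The lower H3K4me3 islands matched the acetylated region less closely than H3K9ac did, with a median of 70.3% of it covered and the middles 900 bp apart. The median log2 fold was −1.14 in replicate 1 (202 reads at 7PM and 295 at 7AM, in a 7PM library of greater depth) and −1.21 in replicate 2 (61 reads at 7PM and 159 at 7AM). H3K9ac higher and H3K4me3 lower were both listed at 64 regions, while 375 (48.1%) had neither mark listed in either direction. Of the 2132 falling H3K27ac regions over falling H3K36me3, H3K4me3 was lower at 43.2% and H3K9ac at 64.96%. Lower H3K4me3 was thus listed less often under rising than under falling acetylation, and more often than at rising regions elsewhere, with no test of either difference.

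Ranked by the smaller of the 2 log2 falls, 3 regions led those with H3K4me3 lower in both replicates. By the mean of the 2, Peaxi162Scf00684:316601 (−1.58 ± 0.33, SD, n = 2 pairs) was lower still. Peaxi162Scf00032:2669001-2669200, a single 200 bp window at the border of a methylated region, had an H3K4me3 island with 41 reads at 7PM and 75 at 7AM in replicate 1, and 19 at 7PM and 65 at 7AM in replicate 2. Peaxi162Scf00740:113201-113800 had 19 at 7PM and 34 at 7AM, and 8 at 7PM and 27 at 7AM, with both acetylations higher in both replicates. Peaxi162Scf00030:621201-622800 had 537 at 7PM and 951 at 7AM, and 198 at 7PM and 571 at 7AM, a mean log2 fold of −1.40. These regions were picked for falls listed in both replicates, and in raw reads too the 7PM count was the lower one in each pair.

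Higher H3K4me3 was listed at few regions. Peaxi162Scf00163:906601-916200, an acetylated region of 9600 bp around a methylated region of 2200 bp, had 1060 H3K4me3 reads at 7PM and 487 at 7AM in replicate 2. H3K27ac and H3K9ac were higher in both replicates there, with 432 and 448 reads at 7PM and 168 and 142 at 7AM in replicate 1. Peaxi162Scf00302:1214801-1218200 had 28 H3K4me3 reads at 7PM and 10 at 7AM in replicate 2. At Peaxi162Scf00352:599201-603400 the replicates were opposite, with 221 reads at 7PM and 316 at 7AM in replicate 1 and 48 at 7PM and 19 at 7AM in replicate 2. No region of the 780 had higher H3K4me3 listed in both replicates.

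In the same edgeR test, 1866 regions listed in both H3K4me3 replicates were fitted, of which 1656 (88.7%) were called lower and 186 (9.97%) higher at an adjusted p under 0.05. Of those, 42 overlapped the 780, and 41 were called lower and 0 higher, while the other was the opposite pair at Peaxi162Scf00352 (adjusted p = 0.531). At Peaxi162Scf00684:316601, the fitted log2 fold was −1.62 (edgeR adjusted p = 0.00261), at Peaxi162Scf00032:2669001 −1.53 (0.00275), at Peaxi162Scf00740:113201 −1.49 (0.00557) and at Peaxi162Scf00058:2627001 −1.25 (0.00274). The regions entered the test because both pairs had listed them, so a share called of 41 of 42 stands beside 88.7% of all. The fitted log2 fold had a median of −1.24 at the 42 and −1.27 over all, and TMM factors, which assume that most tested regions did not change, moved these to 0.01 and −0.03 and left 0 calls at the 42, with 0.965% of all called lower. With no replicate block, 0 of the 42 were called, and 0.857% of all were called lower. The fall of H3K4me3 at these regions is thus one relative to library totals.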

How the data were processed

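ChIP-seq of 4 histone marks was analysed from 16 deposited lists of islands. The tools named in the submitters' processing notes are cutadapt, Bowtie2 and SICER 1.1. Genome build and tool settings are not stated in the sources used, no gene annotation was used here, and scaffolds keep the names of the lists. Each deposited list has 13 unnamed columns: per island, the authors give read counts of the 7PM and the 7AM library, the same as CPM, a fold (a ratio) of the libraries in each direction, and a p-value and FDR (q-value) for each. The columns follow the layout that SICER writes and the direction of each list as its authors label it. All per-sample columns are used (0 are not). Listed islands changed by at least 2.00-fold, at an FDR of at most 0.0097; lengths are multiples of 200 bp. Coordinates are 1-based.

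Samples were grouped by mark, time and replicate number from their labels. Library totals were the quotient of count and CPM. Islands were merged by an overlap of at least 1 bp, and a region's log2 fold adds 1 read to each summed count. H3K27ac and H3K36me3 were not tested. H3K9ac and H3K4me3 regions listed in both replicates, without those holding both directions in a replicate, were fitted in edgeR 4.0.16 (R 4.3.3) with library totals and the replicate as a block, since borders belong to a pair of libraries. Same-numbered libraries deviated together, with correlations of 0.48 for H3K9ac and 0.80 for H3K4me3, and borders are shared within a pair. The overlap code and the fits were tested on simulated data. Alternatives used DESeq2 1.42.0, TMM, median-of-ratios factors and other filters. Further tools were Python 3.11.15, pandas 2.3.3 and scipy 1.17.1.

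Named regions are those in both replicates of both marks, and the leading ones by H3K27ac level, H3K9ac rise and fall, H3K4me3 fall and rise, least overlap or nearest miss, and most regions in 1 methylated region. The regions and lists were chosen with earlier results of these data known. Exact intervals are Clopper-Pearson at 95% and cover counting error only; 3 reads correspond to 0.212 to 0.446 CPM in H3K27ac libraries.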

Additional observations from a re-analysis of the deposited data

How the results depend on the processing

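The number of regions was 476 at an FDR of 1e-05, 255 with at least 50 reads, 16 at 3-fold, 454 with 1 region per scaffold and 82 with both H3K27ac replicates required; leaving out 1 replicate gave 147 to 727, least without H3K36me3 replicate 3 (147) and H3K27ac replicate 2 (164). The last 2 choices, 1 per scaffold and both replicates, were added after seeing the data. The share in both H3K27ac replicates, 10.5%, was 8.42% with at least 50% of the region covered, 13.03% at the stricter FDR, 13.3% with 50 reads, and 9.77 to 15.6% without 1 replicate. The share wholly inside was 58.3% with 50% covered, 42.0% at the stricter FDR, 26.7% with 50 reads, 31.3% at 3-fold, 31.7% in both replicates, 38.1% with H3K36me3 replicate 1 alone as the methylated region, and 38.1 to 55.5% without 1 replicate. The share with higher H3K9ac was 44.7% at the stricter FDR, 60.4% with 50 reads, 37.5% at 3-fold, 73.2% in both replicates and 7.18 to 49.7% without 1 replicate, least without H3K9ac replicate 2. The share with lower H3K4me3 was 6.25% at 3-fold, 30.5% in both replicates and 10.6 to 48.3% without 1 replicate, most without H3K36me3 replicate 3. These settings change which regions are counted; other causes were not tested.

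In the edgeR fits, H3K9ac calls over all regions were 0 as reported, 399 with TMM factors, 386 with median-of-ratios factors, 496 with DESeq2 (which gave an adjusted p for 1484 of 2424) and 471 with 50 reads, and at the regions 54, 54, 25 and 27. H3K4me3 calls were 1842 as reported, 204 with TMM and 201 with median-of-ratios factors, and at the regions 41, 0 and 0. With no replicate block, H3K9ac had 0 calls and H3K4me3 16, with 0 at the regions. H3K4me3 log2 folds turned to 0.0032 and 0.0148 (TMM and median-of-ratios) at Peaxi162Scf00013:795201, 0.00051 and 0.0121 at Peaxi162Scf00058:2627001, and 0.596 and 0.608 at Peaxi162Scf00352:599201. Both factors assume that most regions did not change, whereas each tested region was listed as changed.

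With 2 libraries per time, an exact 2-sided test of 1 region, 2 against 2 libraries without pairing, could not go below p = 0.333. H3K27ac had medians of 33 to 37 reads at 7PM per region, so that small differences could not be seen at this depth. Reads without molecular identifiers are not independent molecules.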
